A study of Mus musculus with 59 samples.

Results

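The extraembryonic ectoderm transcription factors examined here are 10 genes, Elf5, Cdx2, Tfap2c, Sox21, Ets2, Gata2, Gata3, Hand1, Tead4 and Vgll1, taken by symbol from 22119 genes with a listed transcript in the RNA-seq of 14 single mouse epiblasts at E6.25. Each gene was represented by its transcript with the highest mean raw count, and a transcript missing from a library was given 0; all 10 genes had a listed transcript. The Ehmt2 cross gave 4 control and 4 Ehmt2-/- epiblasts, which lack the H3K9 methyltransferase G9a, and the Ezh2 cross gave 3 control and 3 Ezh2-/- epiblasts, which lack the H3K27 methyltransferase of Polycomb repressive complex 2. All came from heterozygous parents on a mixed background, without other treatment, and 750 pg of RNA from each was amplified. The labels give the controls as G9a+/+ and Ezh+/+, whereas the methods count heterozygous littermates among them, so a control may carry 1 mutant allele.

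The extraembryonic ectoderm is the trophoblast tissue that lies directly on the proximal epiblast before gastrulation and is separated from it by dissection. It is maintained by a circuit of transcription factors that it shares with trophoblast stem cells, and it gives rise to the ectoplacental cone, whose cells become giant cells and spongiotrophoblast. In the epiblast this programme is off, and the Elf5 promoter is a textbook example of a gene held silent there by DNA methylation. RNA of these genes in an isolated epiblast can therefore come from epiblast cells that express them. It can also come from trophoblast, or from other tissue such as maternal decidua, taken along with the epiblast. In bulk RNA more cells of a type and more RNA per cell cannot be told apart. Where the RNA came from was not tested. The question was whether the 10 genes moved together and in 1 proportion across the epiblasts, or singly.

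The genes lie on 7 chromosomes, at chr2:103424062-103450989 (Elf5), chr5:147300805-147307270 (Cdx2), chr2:172549593-172558622 (Tfap2c), chr14:118233232-118237030 (Sox21), chr16:95702075-95721051 (Ets2), chr6:88198334-88207030 (Gata2), chr2:9857078-9878600 (Gata3), chr11:57828707-57832147 (Hand1), chr6:128227143-128300813 (Tead4) and chrX:57088106-57106540 (Vgll1) in GRCm38. RefSeq promoter entries of GRCm38.p6 were matched for 7 of the 10; Tfap2c, Hand1 and Tead4 had no entry. The 250 bases before the start site are shown for 4 genes that differ in how they behaved: Elf5, Cdx2 and Sox21, which were highest in the same Ehmt2-/- epiblast, and Vgll1, which was not. The windows are chr2:103423818-103424067 on the plus strand (Elf5), chr5:147307250-147307499 on the minus strand (Cdx2), chr14:118237031-118237280 on the minus strand (Sox21) and chrX:57087856-57088105 on the plus strand (Vgll1). Each sequence runs 5' to 3' on the strand of its gene, and capitals mark matches on either strand to the core motifs of factor families among the 10, GGAATG for TEAD, GCCNNNGGC for AP-2, GATAA for GATA and GGAAG for ETS factors.
Elf5: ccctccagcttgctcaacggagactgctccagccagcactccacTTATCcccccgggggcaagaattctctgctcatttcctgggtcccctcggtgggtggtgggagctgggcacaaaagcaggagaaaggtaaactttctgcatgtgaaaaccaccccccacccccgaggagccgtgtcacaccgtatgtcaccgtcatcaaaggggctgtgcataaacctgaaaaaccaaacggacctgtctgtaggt
Cdx2: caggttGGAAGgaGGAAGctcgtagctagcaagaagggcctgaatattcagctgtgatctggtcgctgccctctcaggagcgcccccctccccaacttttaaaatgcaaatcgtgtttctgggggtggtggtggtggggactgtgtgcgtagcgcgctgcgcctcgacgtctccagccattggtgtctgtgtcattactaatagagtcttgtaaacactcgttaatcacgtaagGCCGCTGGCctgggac
Sox21: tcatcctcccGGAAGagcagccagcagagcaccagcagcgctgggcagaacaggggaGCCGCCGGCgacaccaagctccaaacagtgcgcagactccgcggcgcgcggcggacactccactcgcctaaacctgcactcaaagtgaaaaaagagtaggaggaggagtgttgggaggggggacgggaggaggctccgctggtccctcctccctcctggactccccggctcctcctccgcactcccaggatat
Vgll1: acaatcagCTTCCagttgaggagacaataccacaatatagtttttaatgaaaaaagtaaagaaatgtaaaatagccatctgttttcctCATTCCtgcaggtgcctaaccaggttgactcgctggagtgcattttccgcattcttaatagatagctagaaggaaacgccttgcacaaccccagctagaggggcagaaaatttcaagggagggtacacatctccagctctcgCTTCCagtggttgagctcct
The Elf5 window held 8 CpG dinucleotides, the Cdx2 window 13, the Sox21 window 17 and the Vgll1 window 4, against a median of 6 over 32851 RefSeq promoters of the same length. The Elf5 window had 1 match, to GATAA, a motif present in 22.6% of all these promoters. The Cdx2 and Sox21 windows each had 1 match to GCCNNNGGC, found in 13.7% of promoters, beside 2 and 1 matches to GGAAG, found in 64.1%. Vgll1, whose protein is a cofactor of TEAD factors, had 1 match to GGAATG, found in 12.6%, and 2 to GGAAG. Of the other entries, Gata3 had 3 matches to GCCNNNGGC, Gata2 had 1 to GCCNNNGGC and 1 to GGAATG, and Ets2 had none. No 1 motif was held by all 7 windows, and a match is a description of letters only.

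Summed counts per library were between 30161171 and 68464895, and the most counted Ehmt2 transcript was at 3.29 to 9.79 CPM in the 4 Ehmt2-/- epiblasts against 10.5 to 34.1 CPM in their controls, as Ezh2 was at 11.4 to 16.0 CPM against 51.6 to 108 CPM. CPM are counts relative to library size, after scaling all 14 libraries together with edgeR's TMM method, and 3 counts corresponded to 0.0501 to 0.0933 CPM. Control 4 and knockout 4 of the Ehmt2 cross stood apart: their depth, 62589918 and 68464895 counts, was the greatest, yet they had 0 counts for 7.97% and 8.79% of 16140 genes, against 2.33% to 5.56% in the other 12 libraries. The study's table of changed genes heads the comparison of knockout 4 as against control 4 alone, while its methods describe each knockout as set against all controls; the model used here had a term for the 2 sets. Results of the Ehmt2 cross are given with and without these 2 libraries. Markers of the epiblast were high in every library, with 9 genes summing to 1582 to 3006 CPM, led by Dnmt3b, the de novo DNA methyltransferase, at 988 to 2070 CPM.

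In the Ehmt2 cross, knockouts 1, 2 and 3 had more RNA of all 10 factors than any of controls 1 to 3, and knockout 4 lacked most of them. Elf5, Tfap2c and Sox21 rose by edgeR's quasi-likelihood test over the 4 against 4 epiblasts, by 6.03, 3.80 and 4.28 on the log2 scale. With the replicate number as a block their adjusted p-values by edgeR were 0.0526, 0.0715 and 0.169, and without the term for the comparison sets they were 0.290, 0.486 and 0.410, so no factor was called in either fit. Knockout 1 was the highest of all 14 epiblasts for 7 factors, but Gata2 and Hand1 peaked in knockout 3 and Vgll1 in knockout 2, so the list did not follow a single epiblast.

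**Figure D1:**
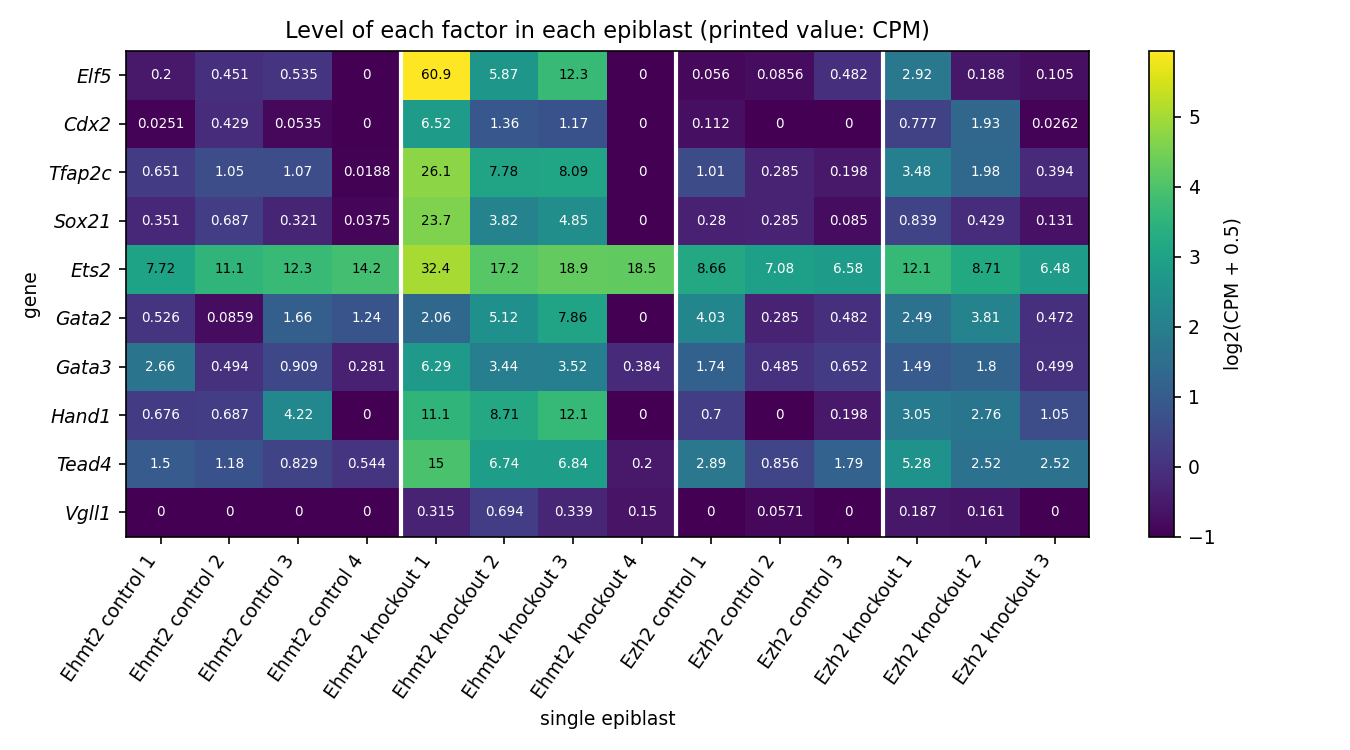
Heatmap of the 10 transcription factors (vertical axis) in the 14 single epiblasts (horizontal axis), coloured by log2(CPM + 0.5), with the CPM printed in each cell and white lines between groups. Ehmt2 knockouts 1 to 3 carry the high values, for example 60.9, 5.87 and 12.3 CPM of Elf5, and Ehmt2 knockout 4 is at 0 for 6 of the 10.

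Elf5, an ETS factor that forms a self-reinforcing loop with Cdx2 and Eomes in trophoblast stem cells, was at 60.9, 5.87, 12.3 and 0 CPM in the knockouts (1 to 4, in this order throughout) and at 0.200, 0.451, 0.535 and 0 CPM in the controls. Its counts were 2130, 203 and 471 in knockouts 1 to 3 and at most 21 in a control. The 3 high knockouts were apart from every control, and the fourth was at the bottom together with control 4, so the groups overlapped. The log2 fold change was 6.03 (SE 0.86, adjusted p = 0.0114 by edgeR). Tfap2c, which encodes AP-2 gamma, needed for trophoblast maintenance and later for germ cells, had 0.651, 1.05, 1.07 and 0.0188 CPM in controls and 26.1, 7.78, 8.09 and 0 CPM in knockouts. Its log2 fold change was 3.80 (SE 0.57, adjusted p = 0.0119 by edgeR). Sox21, a SoxB2 factor of trophoblast stem cells, had 0.351, 0.687, 0.321 and 0.0375 CPM in controls and 23.7, 3.82, 4.85 and 0 CPM in knockouts. Its log2 fold change was 4.28 (SE 0.85, adjusted p = 0.0468 by edgeR). In all of these genes knockout 1 was about 3 to 10 times as high as knockouts 2 and 3, and knockout 4 had no count.

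Cdx2, the homeobox factor that sets trophectoderm apart from the inner cell mass, was also highest in knockout 1, at a lower level and with knockouts 2 and 3 close together, with 0.0251, 0.429, 0.0535 and 0 CPM in controls and 6.52, 1.36, 1.17 and 0 CPM in knockouts. Its log2 fold change of 4.04 (SE 1.03) had an adjusted p of 0.132 by edgeR and 0.0041 by DESeq2, so the call depended on the tool. Tead4, the TEAD factor upstream of Cdx2 in the trophectoderm, had 1.50, 1.18, 0.83 and 0.544 CPM in controls and 15.0, 6.74, 6.84 and 0.200 CPM in knockouts. Knockout 4 was below every control here, and the log2 fold change of 2.23 (SE 0.68) had an adjusted p of 0.207 by edgeR and 0.0062 by DESeq2. Without replicate 4 the Tead4 change was 3.02 (SE 0.39, adjusted p = 0.0051 by edgeR). Vgll1 had 0 counts in every control and 11, 24, 13 and 9 counts in knockouts 1 to 4, that is 0.315, 0.694, 0.339 and 0.150 CPM. It had too few counts for the test over the 8 epiblasts, and against a floor of 3 counts per library in the controls the mean of the knockouts was at least 5.43-fold higher. No knockout was as low as a control (exact permutation on CPM, two-sided p = 0.0286, the least possible with 4 against 4). The permutation left out the comparison sets. By the same permutation the other factors apart from Ets2 had two-sided p-values of 0.114 to 0.20. Vgll1 was the only factor of the 10 with counts in knockout 4 and none in any control.

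Ets2, an ETS factor that acts in trophoblast downstream of FGF signalling and is broadly expressed, was the only factor with a clear level in every epiblast. It had 7.72, 11.1, 12.3 and 14.2 CPM in controls and 32.4, 17.2, 18.9 and 18.5 CPM in knockouts. Here too each knockout, knockout 4 included, was above every control (exact permutation on CPM, comparison sets left out, two-sided p = 0.0286). The log2 fold change of 0.95 (SE 0.25) did not pass either threshold (adjusted p = 0.128 by edgeR; 0.0085 by DESeq2, below the fold threshold). Among transcripts tested, every knockout was above every control in 2.55%.

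Gata2 and Gata3, zinc finger factors of trophectoderm and giant cells, differed from each other. Gata2 had 0.526, 0.0859, 1.66 and 1.24 CPM in controls and 2.06, 5.12, 7.86 and 0 CPM in knockouts, with a log2 fold change of 1.69 (SE 1.34, adjusted p = 0.677 by edgeR). Gata3 had 2.66, 0.494, 0.909 and 0.281 CPM in controls and 6.29, 3.44, 3.52 and 0.384 CPM in knockouts, with a log2 fold change of 1.44 (SE 0.52, adjusted p = 0.293 by edgeR). Hand1, a basic helix-loop-helix factor that drives giant cell formation and is also a mesoderm gene, had 0.676, 0.687, 4.22 and 0 CPM in controls and 11.1, 8.71, 12.1 and 0 CPM in knockouts. Its log2 fold change was 2.51 (SE 0.63, adjusted p = 0.125 by edgeR). Gata2 was lowest of the 3 high knockouts in knockout 1, where Elf5 was highest, and Hand1 was nearly level over the 3.

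Of the 10 factors, 9 could be tested and 3 were called higher and 0 lower, where 0.441% of 49872 transcripts were called higher and 0.0581% lower. A call needed an adjusted p under 0.05 and a log2 fold change beyond 1.4. No factor had a negative fold change, and at an unadjusted p under 0.05 edgeR gave 8 higher and 0 lower, against 6.15% and 5.62% of transcripts; DESeq2 called 4 higher and 0 lower. Most of the 9 passed the filter on low counts through the knockouts, so these counts describe the list and do not stand for it as a whole. With replicates 1 to 3 alone all 10 were tested and 5 were called higher, Elf5, Tfap2c, Sox21, Tead4 and Vgll1, against 0.771% of 50716 transcripts. In these 6 epiblasts every knockout was above every control in 10 of 10 factors, against 8.85% of transcripts with enough counts; several factors reached this minimum only or mainly through the knockouts, which favours the order, so the share describes the list and is no support for it. Leaving out control 1 or control 2 left 0 calls over the remaining 7 epiblasts and leaving out control 3 left 1, with the Elf5 fold change at 5.71 to 6.28 and its adjusted p at 0.0715 to 0.0799 by edgeR.

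**Figure D2:**
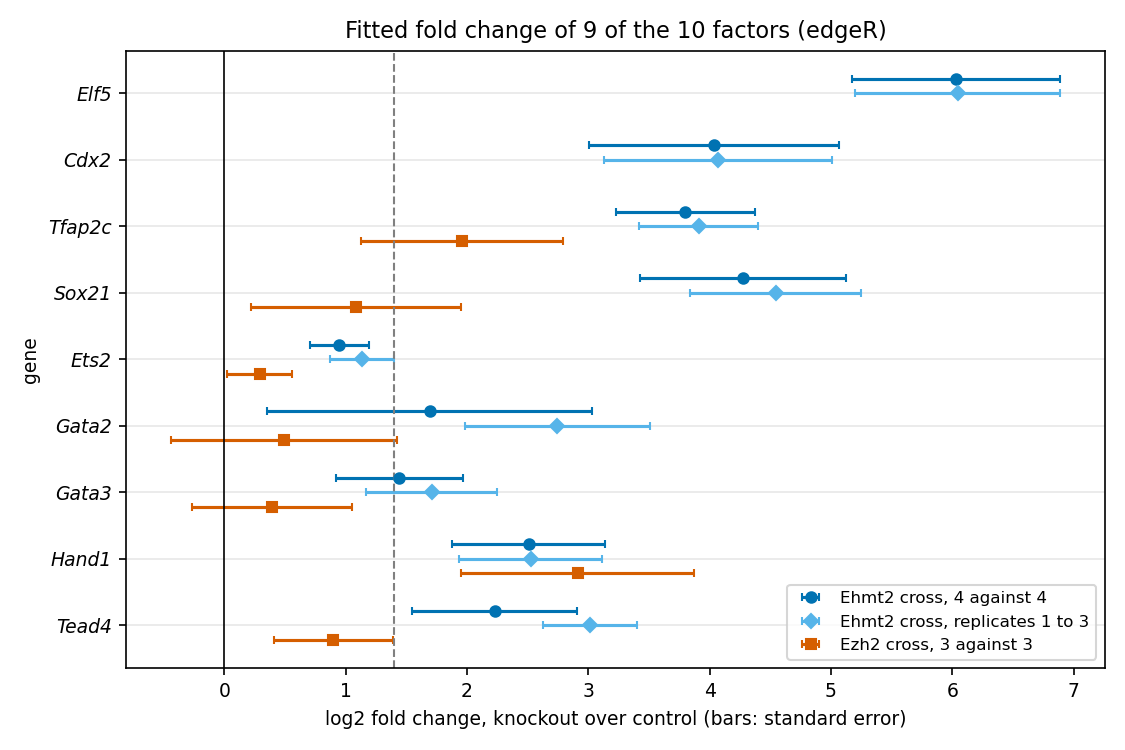
Log2 fold change of knockout over control (horizontal axis, bars are the standard error) for 9 of the factors (vertical axis), from edgeR, in the Ehmt2 cross with all 8 epiblasts or with replicates 1 to 3 alone and in the Ezh2 cross; the dashed line is the fold threshold of 1.4, and Elf5 and Cdx2 were not tested in the Ezh2 cross. With all 8 epiblasts the Ehmt2 values run from 0.95 for Ets2 to 6.03 for Elf5, and every point in the figure lies above 0.

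Whether the factors moved in 1 proportion was read from their excess over the controls, which would then stand in the same ratio between knockouts for each gene. The excess was taken as the level in a knockout minus the mean of controls 1 to 3, and expressed in knockouts 2 and 3 as a percent of that in knockout 1. For Elf5 it was 9.05% and 19.7%, for Sox21 14.4% and 18.9%, for Cdx2 18.7% and 15.8% and for Tfap2c 27.3% and 28.5%. For Ets2 it was 30.9% and 38.9%, for Tead4 40.2% and 40.9% and for Gata3 42.3% and 43.9%. The remaining 3 stood outside this band, Hand1 with 74.3% and 112%, Vgll1 with 221% and 108%, and Gata2 with 335% and 545%. The factors thus fell into a group with a clear maximum in knockout 1 and a group without one, rather than keeping 1 proportion.

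For several factors the level itself, with no control level taken off, differed in its ratio between knockouts beyond counting error. A shared proportion of excess can give unlike level ratios where control levels differ. These intervals therefore do not test the excess, which was given no interval. The Elf5 level in knockout 2 was 9.64% of that in knockout 1 (exact 95% interval 8.30 to 11.1), that of Tead4 44.9% (38.3 to 52.5), that of Hand1 78.6% (67.4 to 91.7) and that of Gata2 249% (188 to 332). The interval of Vgll1, at 221% (104 to 499), was wide because it rested on 24 and 11 counts. Other factors were not separated by counting: in knockout 2 the interval of Cdx2, at 20.8% (14.9 to 28.6), overlapped those of Sox21, at 16.1% (13.3 to 19.3), and Tfap2c, at 29.9% (26.0 to 34.2), and those of Ets2, at 53.0% (47.9 to 58.6), Gata3, at 54.7% (43.4 to 68.7), and Tead4 overlapped as well. In knockout 3 Elf5, at 20.2% (18.2 to 22.3), Cdx2, at 18.0% (12.8 to 24.9), and Sox21, at 20.4% (17.3 to 24.0), overlapped, so the gap of Elf5 from these 2 genes was seen in knockout 2 alone. The intervals cover counting error only; amplification of 750 pg of RNA adds error that 1 library per embryo does not show. Knockout 3 was above knockout 2 and below knockout 1 for 6 factors, an order found in 18.7% of 16140 genes. Knockout 1 was the highest of the 14 epiblasts for 9.27% of genes, knockout 3 for 3.68% and knockout 2 for 5.48%.

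**Figure D3:**
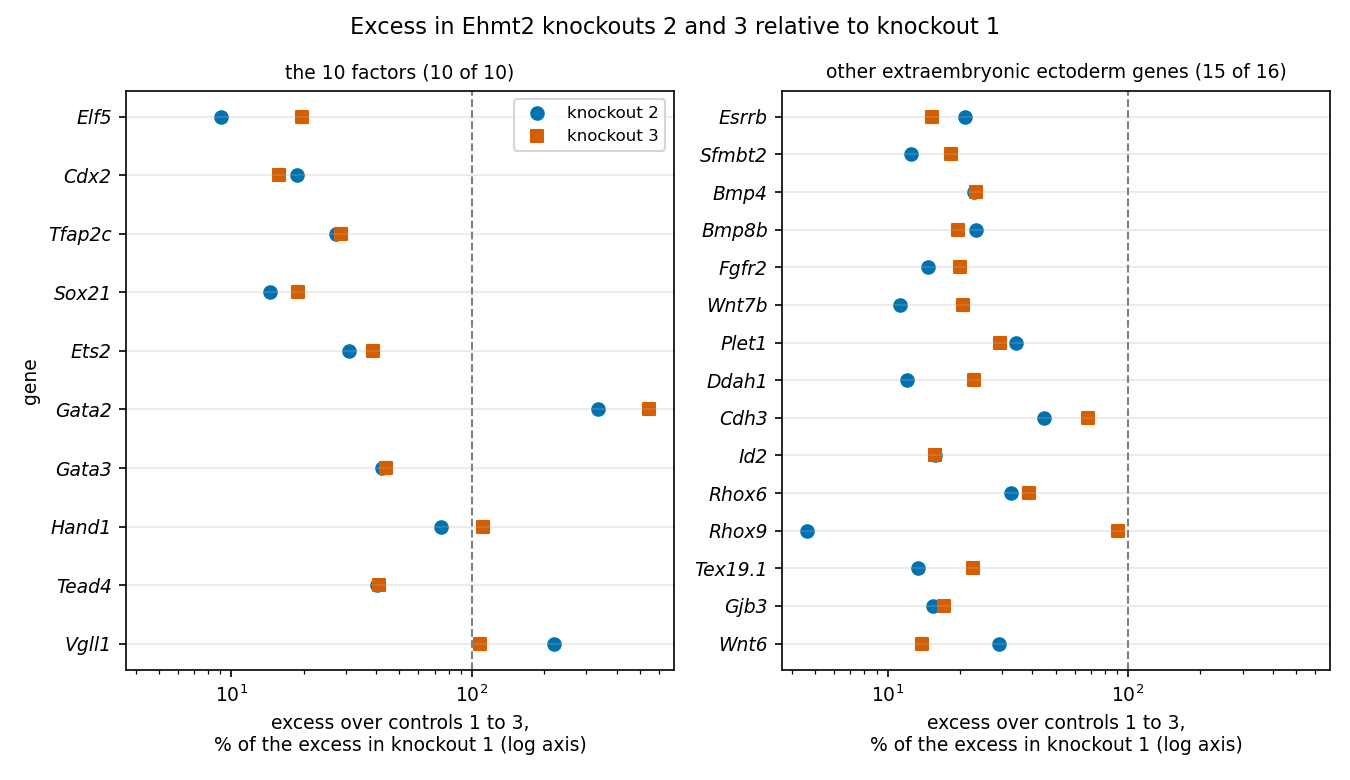
Excess over the mean of Ehmt2 controls 1 to 3 in Ehmt2 knockouts 2 (circles) and 3 (squares), as a percent of the excess in knockout 1 (horizontal log axis, dashed line at 100%), for the 10 factors (left) and 15 of 16 other extraembryonic ectoderm genes (right; Eomes, with negative values, is left out). Elf5 lies at 9.05% and 19.7% and Tead4 at 40.2% and 40.9%, while Gata2, at 335% and 545%, lies beyond 100%.

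Other genes of the extraembryonic ectoderm had a similar order. Of a list of 16, 14 were tested, 4 rose and 0 fell by edgeR, where 0.441% of all transcripts were called higher and 0.0581% lower. The median log2 fold change was 2.48 (2.51 over the 9 factors tested), where 49.0% of all transcripts had a fold change above 0. As with the factors, genes low in the controls passed the filter on low counts with the help of the knockouts, so these counts describe the list only. Esrrb, an orphan nuclear receptor of trophoblast and naive stem cells, rose by 5.33 (SE 0.63, adjusted p = 0.0031 by edgeR) and Sfmbt2, an imprinted Polycomb protein of trophoblast, by 5.03 (SE 0.60, adjusted p = 0.0031 by edgeR). Bmp4, the signal that the extraembryonic ectoderm sends to the epiblast, rose by 3.20 (SE 0.51, adjusted p = 0.0167 by edgeR), and Id2, a target of BMP signalling, by 2.66 (SE 0.50, adjusted p = 0.0397 by edgeR). The excess in knockout 2 lay within the range of the 7 factors highest in knockout 1, 9.05% to 42.3%, for 13 of the 16 genes. In knockout 3 it lay within their range, 15.8% to 43.9%, for 10. These ranges come from factors picked for their maximum in knockout 1. No share over all genes was taken, so the 2 counts are descriptions only. Eomes, the T-box factor that works with Elf5 and Cdx2, was already at 18.5 to 121 CPM in the Ehmt2 controls. It was at 16.6 to 119 CPM in the knockouts, so a defining gene of the tissue did not separate the groups. Eomes is also a primitive streak gene. Mixl1, a streak homeobox gene, was at 48.4 CPM in control 2, where Eomes was highest. The other 3 controls had 0.994 to 1.90 CPM of Mixl1. In knockout 1, with 119 CPM of Eomes, Mixl1 was at 0.944 CPM. The part of streak expression in the Eomes level was not tested.

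Knockout 4 set the factors apart from part of this list. Elf5, Cdx2 and Hand1 had 0 counts in both replicate 4 libraries, and Tfap2c, Sox21 and Gata2 had 0 in knockout 4 alone; 0 counts allow a level of up to 0.0501 CPM there (3 counts). The factors above control 4 in knockout 4 were Ets2, Vgll1 and, by 0.384 against 0.281 CPM, Gata3. In the same library Bmp4 was at 4.38 CPM against 1.28 in control 4, Id2 at 10.9 against 3.08, Sfmbt2 at 6.03 against 0.188 and Esrrb at 1.12 against 0.0188. In all, knockout 4 was above control 4 for 5 of the 16 genes. With 1 epiblast per genotype these differences have no replicate check.

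Markers of other tissues were counted in the same libraries. The 11 listed genes of ectoplacental cone and giant cells summed to 135 to 378 CPM in knockouts 1 to 3, 11.7 CPM in knockout 4 and 9.64 to 43.6 CPM in controls; Peg10, an imprinted gene of the placenta, made up most of it, with 350, 126 and 99.5 CPM in knockouts 1 to 3. None of the 8 tested was called over the 8 epiblasts (edgeR, 2 at an unadjusted p under 0.05), with Phlda2, an imprinted regulator of placental growth, at 1.88 (SE 0.44, adjusted p = 0.0943; DESeq2 called it, as the only one of the 8) and Peg10 at 2.43 (SE 0.62, adjusted p = 0.121). The giant cell genes Prl3d1 and Cts7, singled out after their values were seen, were not highest in knockout 1. Prl3d1 had 0.143, 2.86, 4.25 and 0 CPM in knockouts and 1.88, 1.03, 4.47 and 0 CPM in controls. Cts7 had 0.0858, 2.92, 4.20 and 0 CPM in knockouts and 0.426, 1.12, 5.08 and 0 CPM in controls, so the control with the most of both, control 3, was also the one with 4.22 CPM of Hand1. Decidual Prl8a2, likewise singled out, had 1.86, 15.2, 17.3 and 0 CPM in knockouts and 10.3, 5.71, 7.75 and 0 CPM in controls. Their part in the Hand1 and Gata2 values was not tested.

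Maternal decidua and blood genes summed to 16.5, 49.1, 74.8 and 12.1 CPM in Ehmt2 knockouts 1 to 4 and 7.28 to 44.3 CPM in controls. Gata2 had the same order over knockouts 1 to 3, an order found in 17.1% of 16140 genes, and any link was not tested. Of the list, 0 of 7 tested were called by edgeR (0 at an unadjusted p under 0.05, and 0 called by DESeq2). Des, an intermediate filament of muscle and decidua, and Col1a1, a collagen chain, had fold changes of 0.85 and 0.70. Of 15 visceral endoderm genes, summing to at most 63.6 CPM in an Ehmt2 epiblast, 0 of 11 tested were called (1 at an unadjusted p under 0.05, and 1 called higher by DESeq2, Cited1), with Apob, an apolipoprotein, at -0.79 and Cubn, an endocytic receptor, at 0.49. Of 9 primitive streak and mesoderm genes tested, 0 were called and 8 had a negative fold change (2 at an unadjusted p under 0.05, and 1 called lower by DESeq2, Mixl1), among them Mixl1 at -4.21 (SE 1.02, adjusted p = 0.103 by edgeR), a value that rested on control 2 and was -1.81 (adjusted p = 0.579) without it, and Fgf8, a streak growth factor, at -0.60. The epiblast list had 0 of 9 called and 7 below 0 (4 at an unadjusted p under 0.05, and 0 called by DESeq2), with Dnmt3b at -0.50 and Tdgf1, the Nodal co-receptor, at -0.21. Its summed level was 1582 to 2346 CPM in Ehmt2-/- epiblasts, lowest in knockout 1, and 2650 to 3006 CPM in controls.

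**Figure D4:**
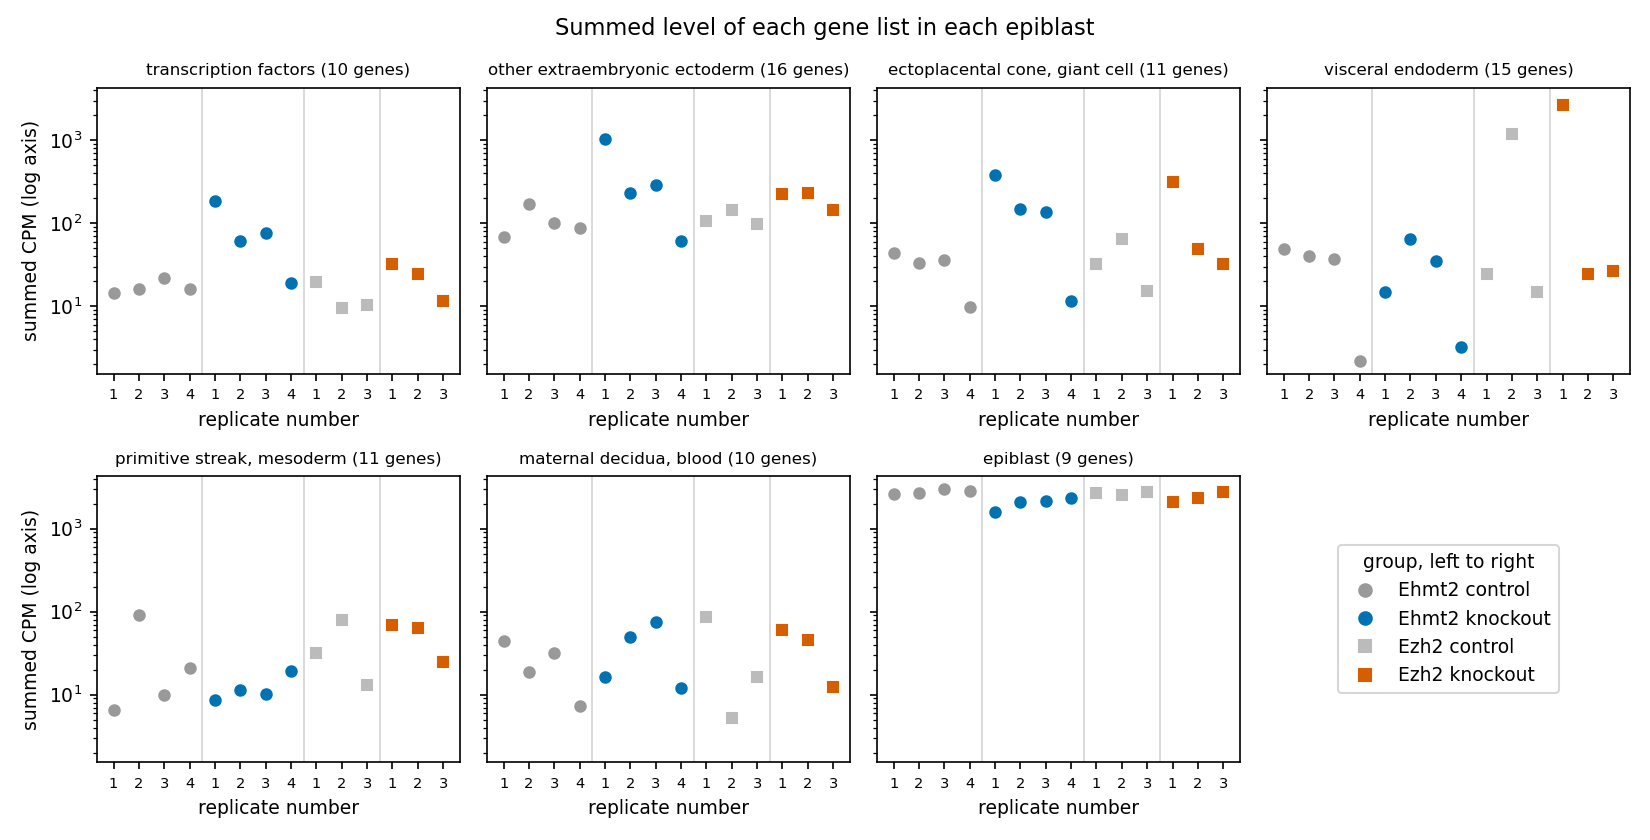
Summed CPM (vertical log axis) of each of 7 gene lists, 1 panel a list, in the 14 epiblasts, placed in the order Ehmt2 control, Ehmt2 knockout, Ezh2 control and Ezh2 knockout with the replicate number on the horizontal axis. The factors sum to 184, 60.7 and 76.1 CPM in Ehmt2 knockouts 1 to 3 and 19.2 CPM in knockout 4, and the visceral endoderm list is high in Ezh2 control 2 and Ezh2 knockout 1. Ets2 alone makes up 18.5 of the 19.2 CPM in Ehmt2 knockout 4.

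In the Ezh2 cross no factor was called. The 10 together summed to 32.6, 24.3 and 11.7 CPM in knockouts 1 to 3 and to 9.42 to 19.5 CPM in controls, against 184 CPM in the highest Ehmt2-/- epiblast. Ets2, which is broadly expressed, made up much of the low sums, with 7.08 of 9.42 CPM in control 2 and 6.48 of 11.7 CPM in knockout 3. Hand1 was the only factor in which every knockout was above every control, with 3.05, 2.76 and 1.05 CPM against 0.700, 0 and 0.198 CPM. Its log2 fold change was 2.91 (SE 0.96, adjusted p = 0.574 by edgeR), and a two-sided exact permutation gave p = 0.10, the least possible with 3 against 3; 6.44% of transcripts were ordered in this way. Of the 7 factors tested, 0 were called higher, where 0.0% of 50855 transcripts were, and 0 lower, where 0.0118% were. All 7 fold changes were above 0, as were 51.5% of those of all transcripts; 2 had an unadjusted p under 0.05 (Hand1 and Tfap2c, 4.05% of transcripts), and DESeq2 called 0.

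Of the Ezh2-/- epiblasts, knockout 1 was the highest for Elf5, Tfap2c, Sox21, Ets2, Hand1, Tead4 and Vgll1. Knockout 2 was the highest for Cdx2, Gata2 and Gata3. Knockout 3 was the lowest for every factor, though nearly level with knockout 2 for Tead4. For Vgll1 knockouts 1 and 2 both had 6 counts. Elf5 had 2.92, 0.188 and 0.105 CPM in knockouts 1 to 3, from 94, 7 and 4 counts, and 0.0560, 0.0856 and 0.482 CPM in controls. Cdx2 had 0.777, 1.93 and 0.0262 CPM in knockouts, from 25, 72 and 1 counts, and 0.112, 0 and 0 CPM in controls. Thus Elf5 peaked in knockout 1 and Cdx2 in knockout 2, where the Elf5 level was 6.42% of that in knockout 1 (exact 95% interval 2.51 to 13.8) and the Cdx2 level 248% (156 to 409), a divergence of partners of the same circuit that was beyond counting error. Both had too few counts for the test, as had Vgll1, with 6, 6 and 0 counts in knockouts and 0, 2 and 0 in controls. Tfap2c had 3.48, 1.98 and 0.394 CPM in knockouts and 1.01, 0.285 and 0.198 CPM in controls, a log2 fold change of 1.96 (SE 0.83, adjusted p = 0.689 by edgeR). Tead4 had 5.28, 2.52 and 2.52 CPM in knockouts and 2.89, 0.856 and 1.79 CPM in controls, so the groups overlapped, with a log2 fold change of 0.90 (SE 0.49, adjusted p = 0.779 by edgeR).

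Sox21, Ets2 and the GATA factors overlapped between the Ezh2 groups. Sox21 had 0.839, 0.429 and 0.131 CPM in knockouts and 0.280, 0.285 and 0.0850 CPM in controls. Ets2 had 12.1, 8.71 and 6.48 CPM against 8.66, 7.08 and 6.58 CPM. Gata2 was highest in a control, with 2.49, 3.81 and 0.472 CPM in knockouts against 4.03, 0.285 and 0.482 CPM. The maternal decidua and blood list was also highest in that control, control 1, at 85.7 CPM. It was at 5.25 to 59.3 CPM in the other Ezh2 libraries, and its part in the Gata2 values was not tested. Gata3 had 1.49, 1.80 and 0.499 CPM against 1.74, 0.485 and 0.652 CPM. Knockout 3 was the lowest knockout for each of these 4 factors, with levels inside or below the range of the controls. The adjusted p-values of these 4 by edgeR were between 0.858 and 0.952.

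Here too, 0 of the 14 other extraembryonic ectoderm genes tested were called by edgeR, 6 had an unadjusted p under 0.05, DESeq2 called 3 (Bmp4, Plet1 and Sfmbt2), and the median log2 fold change was 1.29 (0.90 over the 7 factors tested). Over all transcripts 4.05% were higher at an unadjusted p under 0.05 by edgeR. Sfmbt2 was at 54.9, 56.1 and 32.7 CPM in knockouts and 3.73, 8.68 and 0.709 CPM in controls (log2 fold change 3.45, SE 0.62, adjusted p = 0.229 by edgeR; 0.0299 by DESeq2), so each knockout was above every control. Visceral endoderm genes were high in control 2 and knockout 1, in which they summed to 1195 and 2643 CPM against 14.9 to 26.5 CPM in the other 4 Ezh2 libraries; 0 of 14 were called. In this and the other 4 lists no gene was called by edgeR or DESeq2 (1 ectoplacental cone gene was higher and 1 epiblast gene lower at an unadjusted p under 0.05 by edgeR). The ectoplacental cone list was highest in knockout 1, at 311 CPM against 15.3 to 65.0 CPM in the other 5 libraries. Peg10 alone made up most of the sum in knockout 1, at 282 CPM, and was at 7.88 to 55.5 CPM in the other 5. Elf5, Tfap2c, Sox21, Ets2, Hand1, Tead4 and Vgll1 were highest in knockout 1, the library with the most visceral endoderm RNA. Control 2, with the next most, had 0.0856, 0.285, 0.285, 7.08, 0, 0.856 and 0.0571 CPM of them, in this order. Any link of these factors with visceral endoderm RNA was not tested. With control 2 or knockout 1 left out, 0 factors were called.

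The effect of the knockout was compared between the crosses in 1 model over the 14 epiblasts. Of the 10 factors, 0 differed at an adjusted p under 0.05 by edgeR, against 0.0579% of 55248 transcripts, and 2 differed at an unadjusted p under 0.05, against 8.33%. Sox21 rose more in the Ehmt2 cross by 3.12 on the log2 scale (SE 1.25, adjusted p = 0.519) and Elf5 by 3.71 (SE 1.64, adjusted p = 0.572), each by edgeR. Cdx2 and Hand1 had differences of -0.45 (SE 1.88) and -0.41 (SE 1.17). The higher level in the Ehmt2 knockouts was therefore not shown to be an effect that differs between the crosses.

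Isoforms counted separately gave the same picture within a gene. All 7 listed Elf5 isoforms, 6 of 6 of Tfap2c and 5 of 5 of Tead4 were highest in Ehmt2 knockout 1, and both Gata2 isoforms in knockout 3, whereas 2 of 3 Hand1, 4 of 6 Gata3 and 2 of 4 Vgll1 isoforms shared the epiblast of the isoform used. Isoforms share reads and are not independent measurements. Compared per kb of transcript, Elf5 was at 27.4, 2.64, 5.53 and 0 CPM per kb in the Ehmt2-/- epiblasts and Ets2 at 8.33, 4.42, 4.87 and 4.75, so Elf5 was above Ets2 in knockouts 1 and 3 and below it in the other 2. The mean over these epiblasts was 1.00 for Cdx2 and 0.164 for Vgll1. In the Ehmt2 controls the mean was 2.91 CPM per kb for Ets2 and at most 0.734, for Hand1, among the others.

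The genes whose pattern over the 14 epiblasts was most like that of a factor were taken as those with the smallest mean absolute difference in centred log2(CPM + 0.5). For Elf5 they were AU018091 (0.381), Esrrb (0.449) and Duox2 (0.556), and for Sox21 they included Duoxa2 (0.342) and Nup62cl. For Tead4 they were Arhgap31 (0.353), Klf5 and Epb41l1, for Tfap2c Arhgap31 (0.395), Hs3st3b1 and Plet1, and for Hand1 Plet1 (0.596), Arhgap31 and Klf5, so these factors of different peak shared neighbours. For Cdx2 they were Triml2 (0.316), Dyrk4 and Pon2 and for Gata3 Fxyd5 (0.255), Pon2 and Anxa3. Gata2 had Gas7 (0.495), Emx2 and Cyp11a1, the last a steroidogenic enzyme of giant cells, and shared none with another factor. Ets2 and Vgll1 ranged over less than 3 log2 units and were given no neighbours. Among the factors themselves, Tfap2c was closest to Sox21 (0.429) and to Hand1 (0.461). These are descriptions over 14 libraries, with low levels near the added 0.5 CPM in many of them.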

How the data were processed

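RNA-seq of 14 single E6.25 epiblasts was used; the other samples of the series were not used here. Per the labels and the study's methods, the authors amplified the RNA with the Ovation RNA-seq System V2, trimmed reads to 40 nt, aligned them with TopHat2 to GRCm38 (mm10) and counted them with HTSeq-count on each Ensembl release 74 transcript; whether counting used strand was not given in the sources used here. The deposited counts were not normalised. The replicate 4 files of the Ehmt2 cross also held a row of unaligned reads, 12.6% and 13.3% of their counts, which was left out. Of 72515 transcripts, 70021 (96.6%) were matched to GENCODE vM21 (GRCm38) for names and positions.

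Each cross was filtered with filterByExpr, scaled with TMM and tested with edgeR's glmQLFit and glmQLFTest, with a term for the comparison sets (replicates 1 to 3, replicate 4) in the Ehmt2 cross and Benjamini-Hochberg adjustment over all transcripts. Standard errors were derived from the F statistic. The code was tested on simulated data. Which epiblasts shared a litter is not given, so p-values measure the spread between these embryos. Log2 levels have a pseudocount of 0.5 CPM; intervals and the floor of 3 counts cover counting error only.

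Members and lists were chosen with earlier results of these data known. From each other list the text names up to 4 genes called with the largest change in the Ehmt2 cross or, with under 2 called, the 2 with the highest mean CPM, and for each factor ranging over more than 3 log2 units its 3 nearest genes, of which 1 is not reported here; Eomes and other genes named beside a factor were chosen after their values were seen. Alternatives were other scaling, filters and tools, the replicate block and leaving out epiblasts. Versions: edgeR 4.0.16 and DESeq2 1.42.0 in R 4.3.3; scipy 1.17.1, numpy 2.4.6 and pandas 2.3.3 in Python 3.11.15; matplotlib 3.10.9.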

Additional observations from a re-analysis of the deposited data

Results flagged for a closer look

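In the Ehmt2 cross, each factor's 4 controls and 4 knockouts were examined for an epiblast far from the other 3, with Dixon's ratio of gap to range. Of 20 groups, 3 exceeded its 95% critical value. The Vgll1 controls, all at 0 counts, have no defined ratio. A chance rate of about 1 in 20 holds for independent groups of normally spread values. The factors were measured in the same epiblasts, so that rate is no guide here. Cdx2 was highest in control 2, at 0.429 CPM (ratio 0.875), Hand1 in control 3, at 4.22 CPM (0.837), and Ets2 in knockout 1, at 32.4 CPM (0.884). The Cdx2 value rests on 20 counts. Without control 3 the fold change of Hand1 was 3.93 (SE 0.40, adjusted p = 0.0077 by edgeR), against 2.51 (adjusted p = 0.125) with it.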

How the results depend on the processing

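Of 3 factors called higher in the Ehmt2 cross, the count was 5 without a filter on low counts, 5 with replicates 1 to 3 alone, and 0 with at least 10 counts required in every epiblast of 1 genotype, which left 3 factors tested and none of the 3 called ones. It was 0 with the replicate block and 0 without the comparison set term, for which the cause was not tested, and 0 to 4 with an epiblast left out. RLE scaling, DESeq2 and 1 transcript per gene gave 3, 4 and 3. Leaving out control 4 or knockout 4 leaves its partner as the sole epiblast of its set, so that fit rests on replicates 1 to 3. With the replicate block the fold changes of Elf5, Tfap2c and Sox21 were 5.30, 3.52 and 3.76 (adjusted p = 0.0526, 0.0715 and 0.169 by edgeR). Same-numbered epiblasts deviated together with correlations of 0.0528 to 0.361 across transcripts in the Ehmt2 cross and -0.116 to 0.153 in the Ezh2 cross, so the numbers were not taken as pairs; the block changed no call in the Ezh2 cross. Sox21 also had an adjusted p of 0.0748 by DESeq2 and of 0.0620 to 0.221 by edgeR in 6 of the 8 fits that left out an epiblast, with a fold change of 2.72 without knockout 1. The sign of the Gata2 change in the Ezh2 cross turned without control 2 (-0.00041) and without knockout 2 (-0.12), and the range with an epiblast left out was -0.12 to 2.54. Of 221 fold changes under alternatives, 193 kept direction and side of the threshold, 7 gained and 19 lost the call and 2 turned; the 40 levels with the crosses scaled apart moved by less than the spread between replicates. Counts of 0 in the Ezh2 cross and in the comparison of crosses stayed 0. Over all transcripts of the Ehmt2 cross, 220 were called higher and 29 lower; DESeq2 gave 544 and 192, no filter 395 and 65, replicates 1 to 3 alone 391 and 45, the strict filter 257 and 56, 1 transcript per gene 112 and 12 (of 13738), the block 99 and 6 and no set term 51 and 1. In the Ezh2 cross the 0 higher and 6 lower became 153 and 25 with DESeq2, 20 and 8 without the filter, 8 and 6 with the strict filter, 3 and 7 with the block and 0 and 0 with 1 transcript per gene. Depth limits Vgll1, with at most 24 counts, and Cdx2 and Elf5 in the Ezh2 cross.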
